A study of Mus musculus with 4 samples.

Results

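Short interspersed elements (SINEs) were examined in total RNA from mouse embryonic fibroblasts (MEF cells), either wt or without Top2β, a DNA topoisomerase that cuts and rejoins both strands of DNA. The counts table labels each repeat family with a name, a family field and a class, and the 37 rows of class SINE were taken from 56404 rows, which comprise 1562 repeat families and 54842 genes. By their family field they were 16 Alu families (the B1 elements of the mouse and their relatives), 5 B2 families, 4 B4 families, 4 ID families, 4 MIR families, 2 Deu families and 2 tRNA families. All 37 reached 10 counts in 2 or more libraries and were tested, among 26566 features in all. The family with the lowest mean, FAM, had 681 normalized counts, and the family with the highest mean, B3, had 1463314.

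There were 2 libraries of wt MEF cells and 2 libraries of Top2β-null MEF cells, all from untreated cells grown in the same medium. The Top2β-null MEF cells were a gift of other laboratories, and the methods cite another reference for MEF cells in general without saying that both genotypes share an origin, so that an effect of genotype and one of a different origin cannot be told apart. Nothing in the labels or the methods says that the 2 libraries of a genotype came from separate cultures, and p-values then measure only the spread between these libraries, which may be technical. The libraries held between 133116830 and 149647278 counts, of which 8.18% and 8.11% (wt) and 8.70% and 8.22% (Top2β-null) fell on SINEs. Top2b (chr14:16365179-16435462, GRCm38) had 18259 and 18465 normalized counts in wt and 3879 and 3789 in Top2β-null MEF cells (log2 fold change -2.26, adjusted p = 6.6e-19, edgeR). All 7 fibroblast markers were present, with Col1a1, Col3a1, Vim and S100a4 lower and Thy1 and Pdgfrb higher in Top2β-null MEF cells. The summed counts of 3 leukocyte markers were 7 and 8 in wt and 4 and 7 in Top2β-null MEF cells, with Tyrobp at 0 in all libraries. The summed counts of 3 epithelial markers were 65 and 71 against 16 and 13, and those of 3 endothelial markers 120 and 132 against 234 and 256. The part of these marker differences in the results below was not tested.

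SINEs are short repeats that spread through an RNA copy with the help of proteins encoded by LINE elements. Most carry an internal promoter for RNA polymerase III, made of an A box and a B box, which they inherited from a small structural RNA. B1 elements descend from 7SL RNA, the RNA of the signal recognition particle. B2 and ID elements descend from tRNAs, and ID elements are close relatives of BC1 RNA. B4 elements join an ID-like to a B1-like part, whereas MIR elements and the families of the Deu and tRNA fields are old and are shared by many mammals or other vertebrates. Most SINE copies lie within genes, mainly in introns and in the ends of mRNAs, and they are read by RNA polymerase II as parts of longer transcripts. A count of a SINE family sums both kinds of RNA over all of its copies, and the counts do not separate them. The number of copies and their length were not taken into account, so that counts are compared between libraries and not between families as levels.

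SINE consensus sequences were not used here, and the gene for BC1 RNA, a close relative of the ID families, is shown to make the internal promoter visible. The sequence was read from the GENCODE transcripts of GRCm38. Bc1 (chr7:144914470-144914637, forward strand) has 168 bases. Capitals mark its matches to the A box letters TNGCNNAG, at bases 14 to 21 and 33 to 40, and to the B box letters GTTCGNNNC, at bases 58 to 66.
Bc1: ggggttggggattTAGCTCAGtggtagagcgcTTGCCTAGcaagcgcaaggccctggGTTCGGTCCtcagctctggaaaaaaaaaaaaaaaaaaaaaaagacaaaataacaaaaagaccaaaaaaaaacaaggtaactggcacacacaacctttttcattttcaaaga

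Such short motifs are common. Of 32851 RefSeq promoter windows (GRCm38) of 300 bases, searched on both strands, 45.1% held the A box letters and 4.51% held the B box letters. A match is a description of these letters only.

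SINEs as a class differed little between the genotypes. The sum over all 37 families had a log2 fold change of -0.014 (95% interval -0.11 to 0.081, adjusted p = 0.801, edgeR), and 34 of the 37 families had an absolute log2 fold change under 0.1. The median log2 fold change of the families was -0.0080, with a range from -0.13 to 0.26, and the median absolute value was 0.019. With scaling to the total count the sum was at 0.055 and the median at 0.062. With scaling to LINE, LTR and DNA counts they were at -0.067 and -0.061, and with the repeats fitted alone at -0.051 and -0.044. Over all 26566 features, the median absolute log2 fold change was 0.39, and 15.7% were under 0.1. Other repeats were closer to the SINEs, with a median absolute value of 0.075 and 61.1% under 0.1 among LINE families, and 0.065 and 76.9% among non-SINE repeat families with at least 100000 normalized counts. With edgeR's quasi-likelihood test at an adjusted p below 0.05, 2 SINE families were higher and 3 were lower in Top2β-null MEF cells, whereas 32.5% of all features were higher and 32.5% were lower. These 5 were also the only SINE families with an unadjusted p below 0.05. No SINE family passed the cut-offs of the study (adjusted p below 0.05, absolute log2 fold change above 1, mean normalized count above 100), with edgeR or with DESeq2, against 5.27% higher and 4.97% lower of all features. Both Top2β-null libraries lay above both wt libraries for 2 SINE families and below them for 4, against 40.3% and 40.2% of all features. The split of calls depended on the processing. It was 2 higher and 3 lower with edgeR's TMM factors, 7 higher and 0 lower with scaling to the total count, and 1 higher and 3 lower with scaling to LINE, LTR and DNA counts. When the repeats were fitted alone, which changes the features tested as well as the scaling, it was 1 higher and 15 lower. The shares of all features called under these alternatives were not computed.

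**Figure D1:**
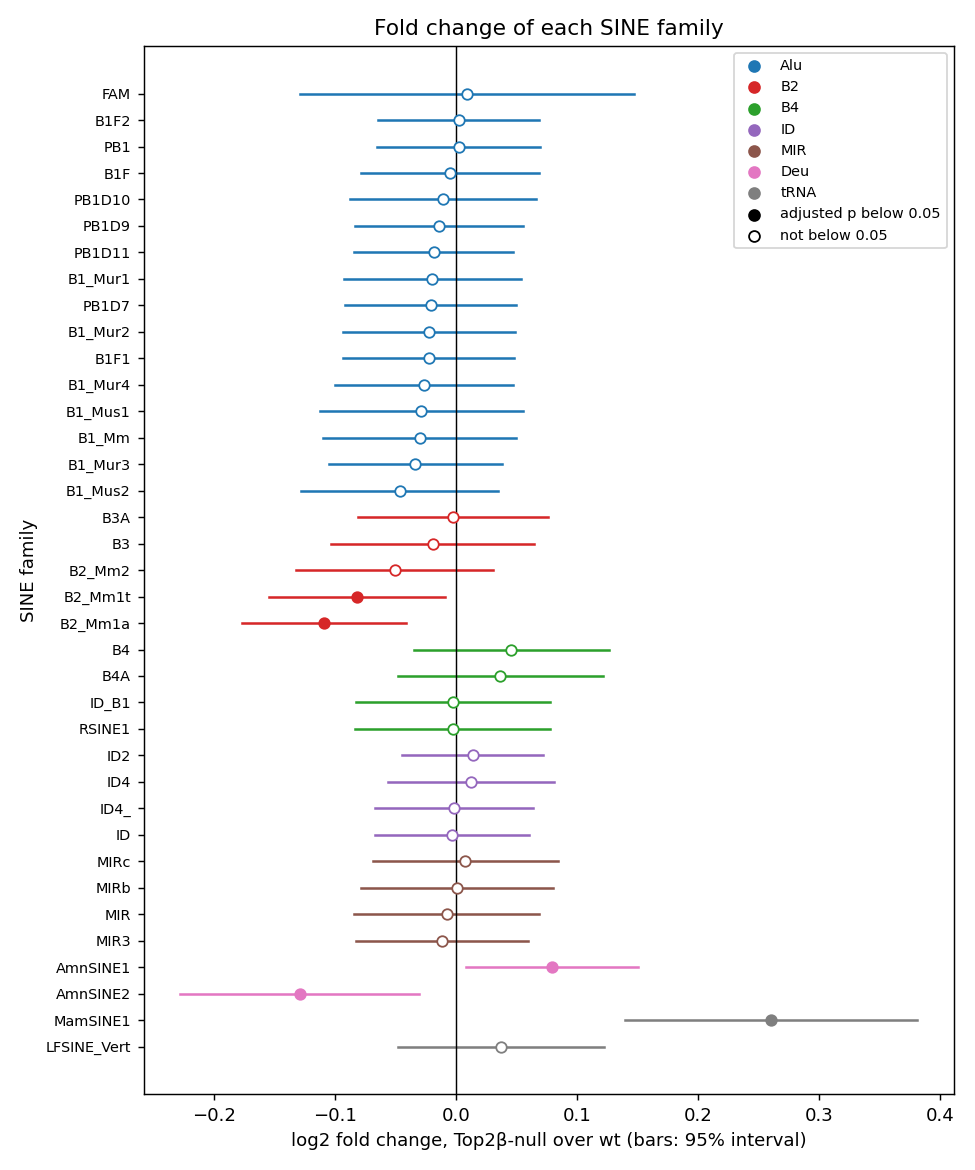
Log2 fold change of each of the 37 SINE families in Top2β-null over wt MEF cells (horizontal axis), ordered by family field, with the 95% interval of the edgeR fit. Filled points have an adjusted p below 0.05: MamSINE1 at 0.26 and AmnSINE1 at 0.079 to the right, and AmnSINE2 at -0.13, B2_Mm1a at -0.11 and B2_Mm1t at -0.082 to the left.

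The libraries of a genotype were not equally close. Top2β-null replicate 1 lay above Top2β-null replicate 2 in 37 of 37 SINE families, by 2.4% to 16.4% with a median of 6.4%. The wt libraries differed by 0.12% to 4.86%, with a median of -0.58% for replicate 2 over replicate 1. Over 16436 features with at least 100 normalized counts in every library, the median of Top2β-null replicate 1 over replicate 2 was -0.17%. The same gap was seen in the other large repeat classes: summed LINE counts were 7.36%, LTR counts 7.24%, DNA transposon counts 7.90% and SINE counts 6.87% higher in replicate 1. The LSU-rRNA_Hsa row, which collects remaining ribosomal RNA, had 69276 and 91687 counts in wt and 112778 and 170414 in Top2β-null MEF cells, and its part in the results was not tested. A fit with 1 library left out takes its spread from the other genotype alone and assumes that the lone library varies like it. Without Top2β-null replicate 1 the median log2 fold change of the SINE families was -0.035, with 1 family called higher and 5 lower. Without Top2β-null replicate 2 it was 0.036, with 6 higher and 1 lower.

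**Figure D2:**
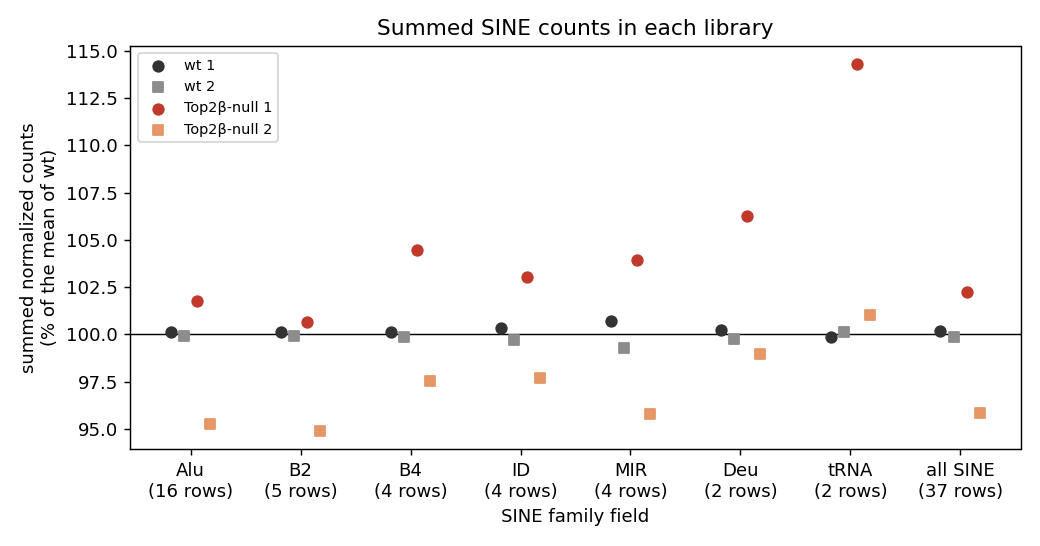
Summed normalized counts of each SINE family field in the 4 libraries, as a percentage of the wt mean (vertical axis, which does not start at 0). For Alu, B2, B4, ID, MIR, Deu and all SINEs, Top2β-null replicate 1 is the highest point and Top2β-null replicate 2 the lowest, and only in the tRNA field do both lie above both wt libraries.

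The Alu field holds the B1 families, which are relatives of 7SL RNA. None of its 16 families differed between the genotypes with edgeR at an adjusted or an unadjusted p below 0.05. Summed over the field, wt MEF cells had 4337996 ± 7102 normalized counts and Top2β-null MEF cells 4273242 ± 198833 (mean ± SD, n = 2 each). The log2 fold change of this sum was -0.022 (95% interval -0.11 to 0.067). The log2 fold changes of the families ranged from -0.047 for B1_Mus2 to 0.0089 for FAM, and 13 of 16 were below 0, a direction that turned for the sum with scaling to the total count (0.047) and without Top2β-null replicate 2 (0.028). B1_Mus1, the B1 family with the most counts, had 594379 and 603800 normalized counts in wt and 611237 and 563229 in Top2β-null MEF cells. B1_Mus2 had 458438 and 461755 in wt and 463575 and 427273 in Top2β-null MEF cells. PB1D10, an older proto-B1 family, had 502905 and 496410 in wt and 511433 and 480231 in Top2β-null MEF cells. In all 3 families the wt libraries lay between the Top2β-null libraries. Without Top2β-null replicate 1, B1_Mm and B1_Mus2 were called lower (B1_Mus2 at a log2 fold change of -0.086, adjusted p = 0.0208, edgeR). With the repeats fitted alone, 10 of the 16 families were called lower, among them B1_Mus2 (-0.083) and B1_Mus1 (-0.065). The share of all repeat families called in that fit was not computed, so this count has no background to be read against. The log2 ratio of young B1 counts (B1_Mm, B1_Mus1 and B1_Mus2) to those of 12 older families was -1.28 and -1.25 in wt and -1.26 and -1.30 in Top2β-null MEF cells. These groups overlapped (difference -0.019, two-sided exact permutation p = 0.67), and the difference ran from -0.037 to -0.00175 with 1 library left out.

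In the B2 field 2 of 5 families were called lower, against 32.5% of all features. B2_Mm1a had 206859 and 211591 normalized counts in wt and 198470 and 189362 in Top2β-null MEF cells. The mean moved by -7.32% (log2 fold change -0.11, 95% interval -0.18 to -0.042, adjusted p = 0.0067, edgeR), and both Top2β-null libraries lay below both wt libraries. B2_Mm1t had 236030 and 238772 in wt and 231609 and 216829 in Top2β-null MEF cells, a change of -5.55% (log2 fold change -0.082, 95% interval -0.16 to -0.0097, adjusted p = 0.0451, edgeR). B2_Mm2 had 845096 and 841484 in wt and 840567 and 787420 in Top2β-null MEF cells, groups that did not overlap, but its log2 fold change of -0.051 did not pass the test (adjusted p = 0.258, edgeR). B2_Mm2 was called lower with the repeats fitted alone (-0.086, adjusted p = 0.0081), and with 1 library left out it ran from -0.078 to -0.0018. These 3 B2_Mm families hold the youngest B2 copies of the mouse, whereas B3 and B3A are older. B3 had 1476113 and 1470168 normalized counts in wt and 1493622 and 1413351 in Top2β-null MEF cells (log2 fold change -0.019). B3A had 697512 and 693462 in wt and 714615 and 673580 in Top2β-null MEF cells (log2 fold change -0.0029). For B3 and B3A the wt libraries lay between the Top2β-null libraries. The sum over the 5 families had a log2 fold change of -0.033 (95% interval -0.12 to 0.052).

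Both calls in the B2 field depended on the scaling, and that of B2_Mm1t also on single libraries. B2_Mm1a stayed below 0 under every alternative, from -0.040 to -0.16, and its adjusted p lay between 1.8e-04 and 0.294, with the call lost under scaling to the total count (-0.040) and to summed SINE counts (-0.095). B2_Mm1t stayed below 0 as well, but its call was lost under 8 alternatives, among them the fits without wt replicate 2 (-0.074) and without Top2β-null replicate 2 (-0.033).

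A ratio within a library needs no scaling between libraries. On the log2 scale, the ratio of B2_Mm counts to B3 and B3A counts was -0.75 and -0.74 in wt and -0.80 and -0.81 in Top2β-null MEF cells. The difference of -0.052 was larger than the replicate spread (pooled SD 0.0070, two-sided exact permutation p = 0.33, the smallest that 2 libraries against 2 allow). Taken one by one after their values had been seen, B2_Mm1a to B3 differed by -0.090, B2_Mm1t to B3 by -0.063 and B2_Mm2 to B3 by -0.032, and for each of these ratios both Top2β-null libraries lay below both wt libraries. B3A to B3 differed by 0.016 in the other direction. For B2 to Alu counts, the log2 ratio differed by -0.011 (pooled SD 0.0051, exact permutation p = 0.33), and it was 0.010 when only the families with the most counts, B3 and B1_Mus1, were compared.

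**Figure D3:**
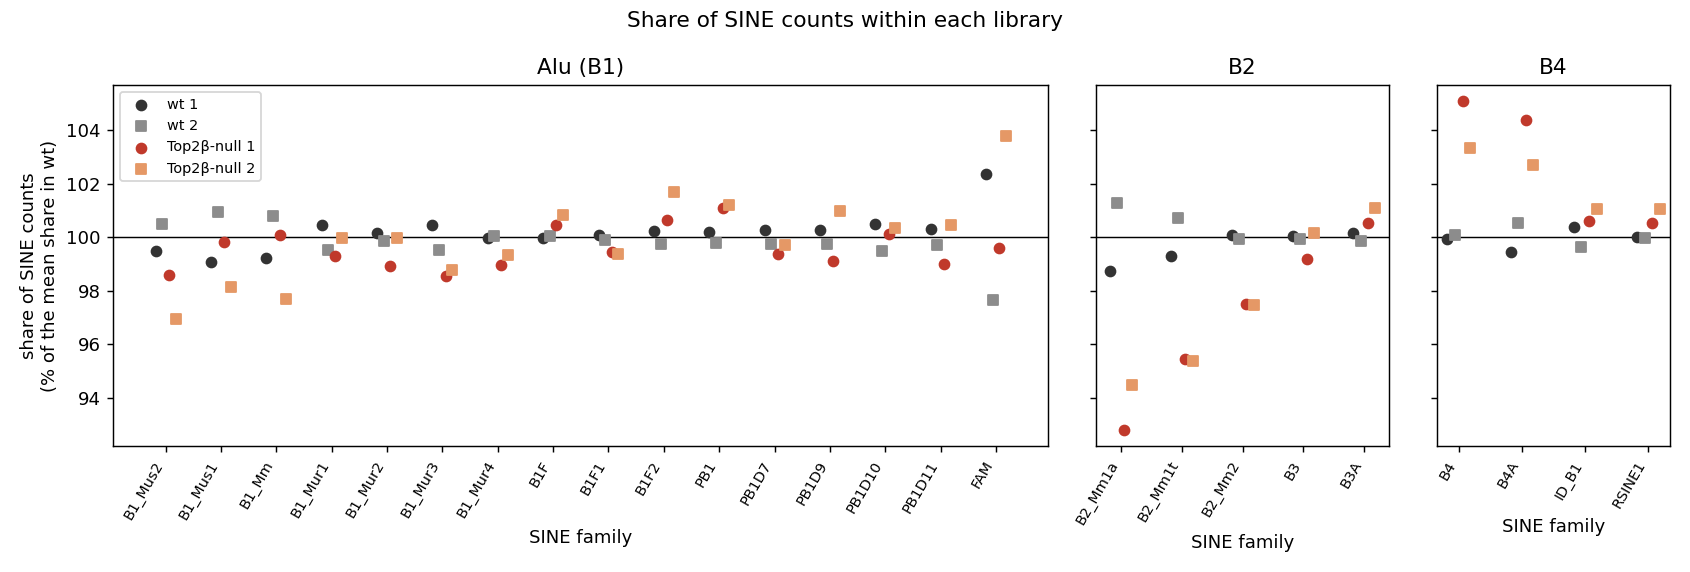
Share of all SINE counts that fell on each Alu, B2 and B4 family in the 4 libraries, as a percentage of the mean share in wt (vertical axis, which does not start at 0). B2_Mm1a, B2_Mm1t and B2_Mm2 lie below both wt libraries in both Top2β-null libraries, and B3A and the 4 B4 families lie above. Of the 16 Alu families, 8 overlap between the genotypes, 5 are lower and 3 are higher, against 38.2% lower and 40.7% higher of all features scaled to SINE counts.

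The B4 field had no call with edgeR at an adjusted or an unadjusted p below 0.05. B4 had 385229 and 384756 normalized counts in wt and 413540 and 381153 in Top2β-null MEF cells (log2 fold change 0.046, adjusted p = 0.308, edgeR). B4A had 723020 and 728868 in wt and 774491 and 714285 in Top2β-null MEF cells (log2 fold change 0.036, adjusted p = 0.446, edgeR). For B4 and B4A, Top2β-null replicate 1 lay above and replicate 2 below both wt libraries. Both were called higher with scaling to the total count (B4A at 0.11, adjusted p = 0.0295, edgeR) and without Top2β-null replicate 2 (B4A at 0.096, adjusted p = 0.0124), and B4 also without a filter on low counts. RSINE1, with 886399 and 883682 in wt and 909576 and 856866 in Top2β-null MEF cells, and ID_B1, with 821097 and 812669 against 839913 and 790590, had log2 fold changes of -0.0030 and -0.0029. As a share of SINE counts, the field took 23.95% and 23.97% in wt, below the 24.48% and 24.39% of both Top2β-null libraries. The log2 ratio of B4 to Alu counts was -0.63 in both wt libraries and -0.59 in both Top2β-null libraries, a difference of 0.036 against a pooled SD of 0.0020 (two-sided exact permutation p = 0.33, the smallest possible). The ratio of B4 and B4A to RSINE1 and ID_B1, chosen after its values had been seen, differed by 0.042 with a pooled SD of 0.017.

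ID families are tRNA-derived relatives of BC1 RNA, whose gene is shown above. None of the 4 ID families was called with edgeR at an adjusted or an unadjusted p below 0.05, and their log2 fold changes lay between -0.0036 and 0.013. ID4_ had 172080 and 170692 normalized counts in wt and 175037 and 167319 in Top2β-null MEF cells. ID4 had 147610 and 147146 in wt and 153209 and 144036 in Top2β-null MEF cells. ID had 37909 and 37628 in wt and 38841 and 36510 in Top2β-null MEF cells, and ID2 had log2 fold change 0.013. In ID4_, ID4 and ID the wt libraries lay between the Top2β-null libraries. With scaling to the total count ID4 (0.082, adjusted p = 0.0359, edgeR) and ID2 were called higher, and with the repeats fitted alone ID was called lower (-0.039, adjusted p = 0.0398). The sum had a log2 fold change of 0.0053 (95% interval -0.064 to 0.074), and the log2 ratio of ID to Alu counts was 0.027 higher in Top2β-null MEF cells (pooled SD 0.0096, exact permutation p = 0.33).

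MIR elements are old copies that no longer move. The 4 MIR families had log2 fold changes between -0.012 and 0.0073, and none was called with edgeR at an adjusted or an unadjusted p below 0.05. MIRb had 256808 and 253553 normalized counts in wt and 266146 and 244379 in Top2β-null MEF cells. MIR had 240128 and 236318 in wt and 246086 and 227718 in Top2β-null MEF cells. MIRc had 131404 and 129121 in wt and 136549 and 125302 in Top2β-null MEF cells. In these families the wt libraries again lay between the Top2β-null libraries. MIRc was called higher without Top2β-null replicate 2 (0.071, adjusted p = 0.0262, edgeR), and MIR3 was called lower with the repeats fitted alone. The log2 fold change of the sum was -0.0022 (95% interval -0.083 to 0.079), the smallest in size of the 7 fields, and the groups overlapped in the log2 ratio of MIR to Alu counts (difference 0.019, exact permutation p = 0.67). With 1 library left out this difference ran from 0.00765 to 0.03065.

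The Deu and tRNA fields hold 4 old families with few counts, and of these 2 were called higher and 1 lower, against 32.5% of all features in each direction. MamSINE1 had 2531 and 2470 normalized counts in wt and 3223 and 2768 in Top2β-null MEF cells. It was 19.8% higher (log2 fold change 0.26, 95% interval 0.14 to 0.38, adjusted p = 7.8e-04, edgeR), the largest change in size among the SINE families. It was called under every alternative run, the fits with a lone library included, with log2 fold changes from 0.17 without Top2β-null replicate 1 to 0.37 without Top2β-null replicate 2. LFSINE_Vert, the other family of the tRNA field, had 6056 and 6141 in wt and 6601 and 5917 in Top2β-null MEF cells (log2 fold change 0.037, adjusted p = 0.437, edgeR). LFSINE_Vert was called higher without Top2β-null replicate 2 (0.12, adjusted p = 0.0031) and with scaling to the total count (0.11, adjusted p = 0.0211). The ratio of MamSINE1 to LFSINE_Vert counts, chosen after its values had been seen, was 0.22 higher on the log2 scale in Top2β-null MEF cells (pooled SD 0.041). The sum of the field rose by 0.11 (95% interval 0.018 to 0.19, adjusted p = 0.0334, edgeR), but this call was lost without Top2β-null replicate 1 (0.035, adjusted p = 0.347), with scaling to LINE, LTR and DNA counts (0.052, adjusted p = 0.524) or to SINE counts (0.12, adjusted p = 0.0948), and with the repeats fitted alone (0.064, adjusted p = 0.140).

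The 2 Deu families were called in opposite directions. AmnSINE1 had 6881 and 6848 normalized counts in wt and 7541 and 6969 in Top2β-null MEF cells (log2 fold change 0.079, 95% interval 0.0082 to 0.15, adjusted p = 0.0481, edgeR). AmnSINE2 had 1931 and 1925 in wt and 1797 and 1728 in Top2β-null MEF cells, a change of -8.57% (log2 fold change -0.13, 95% interval -0.23 to -0.031, adjusted p = 0.0223, edgeR). In both families the groups did not overlap. The AmnSINE1 call was lost without wt replicate 1 (0.083), without wt replicate 2 (0.076) and without Top2β-null replicate 1 (0.043), and the AmnSINE2 call without wt replicate 1 (-0.13) and without Top2β-null replicate 2 (-0.099). DESeq2 called neither (adjusted p = 0.0818 and 0.114). With scaling to LINE, LTR and DNA counts AmnSINE1 was at 0.027 (adjusted p = 0.756, edgeR) and with the repeats fitted alone at 0.044 (adjusted p = 0.233). AmnSINE2 was at -0.060 with scaling to the total count (adjusted p = 0.276, edgeR), and its call was also lost with the repeats fitted alone (adjusted p = 0.0513) and without a filter on low counts (adjusted p = 0.0626). The sum of the field had a log2 fold change of 0.037 (95% interval -0.030 to 0.10), and it was called higher without Top2β-null replicate 2 (0.090, adjusted p = 0.0088, edgeR) and with scaling to the total count (0.11, adjusted p = 0.0058).

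When each library was scaled to its summed SINE counts, an alternative added after the data had been seen, a fold change is that of a share of SINE counts. Then 1 SINE family was called higher and 0 lower with edgeR, which was MamSINE1 (log2 fold change 0.27, adjusted p = 5.6e-04), against 31.1% higher and 29.6% lower of all features. No other SINE family had an unadjusted p below 0.05 in that fit. The shares themselves overlapped between the genotypes for 14 families, and of the others 14 were higher and 9 lower in both Top2β-null libraries, against 40.7% and 38.2% of all features scaled in this way. The share of B2_Mm1a was 1.76% and 1.80% in wt, above the 1.65% and 1.68% of both Top2β-null libraries. The share of B4 was 3.28% in both wt libraries, against 3.45% and 3.39% in Top2β-null MEF cells.

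SINEs were next set beside other repeats. Of 157 LINE families tested, 57 were higher and 7 lower (median log2 fold change 0.062), of 657 LTR families 192 were higher and 94 lower (median 0.030), and of 196 DNA transposon families 46 were higher and 24 lower (median 0.064), against 32.5% of all features in each direction. Of 26 non-SINE repeat families with a mean of at least 100000 normalized counts, 8 were higher and 0 lower, with a median log2 fold change of 0.065, whereas 0 of 28 SINE families above that floor were higher and 2 lower, with a median of -0.017. The median levels of these sets were 170018 and 296732 normalized counts. Of 72 genes above the same floor, 19 were higher and 43 lower, with a median of -0.21. At an unadjusted p below 0.05 the counts were 11 higher and 0 lower among the non-SINE repeats and 0 higher and 2 lower among the SINE families. The median standard error was 0.034 for these non-SINE repeats and 0.035 for the SINE families. The log2 ratio of SINE to LINE counts was 1.23 in both wt libraries and 1.15 in both Top2β-null libraries, a difference of -0.082 with a pooled SD of 0.0044 (two-sided exact permutation p = 0.33, the smallest possible). For SINE to DNA transposon counts it was 3.43 and 3.44 in wt and 3.39 and 3.41 in Top2β-null MEF cells (difference -0.035, pooled SD 0.0091, exact permutation p = 0.33). Against the counts of all genes, the log2 ratio of SINE counts was -3.30 and -3.31 in wt and -3.18 and -3.28 in Top2β-null MEF cells (difference 0.081, pooled SD 0.052, exact permutation p = 0.33). This difference was 0.029 without Top2β-null replicate 1 and 0.13 without Top2β-null replicate 2, and it turned to -0.076 when the SINE family and the gene with the most counts stood for the sums. Groups did not overlap for the ratios of the sums. LINE elements provide the proteins that copy SINEs. Of the 6 L1Md families looked up, L1Md_A, L1Md_F, L1Md_F2, L1Md_F3 and L1Md_T were higher, with log2 fold changes from 0.088 to 0.24, and L1Md_Gf was at -0.0075. L1Md_A had 108843 and 109389 normalized counts in wt and 120988 and 110972 in Top2β-null MEF cells (adjusted p = 0.0398, edgeR). The paper reports no significant change of L1Md_A in these cells. The calls of the L1Md rows were not checked under the alternatives.

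**Figure D4:**
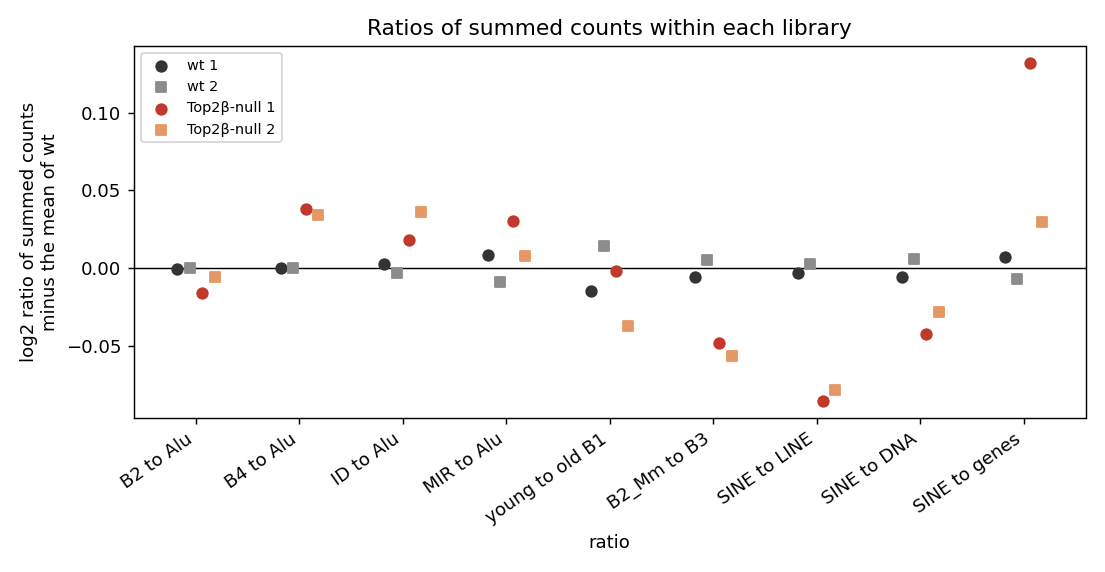
Log2 ratios of summed counts within each library, each minus its mean in wt (vertical axis). The 2 Top2β-null libraries lie close together and below wt for B2_Mm to B3 and for SINE to LINE, close together and above wt for B4 to Alu, and far apart for SINE to genes.

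Small RNAs from which SINEs descend, or to which they are related, give their names to repeat rows, and each row counts all copies of its repeat family. The 7SLRNA row, named after the ancestor of B1, had 2059700 and 2096171 normalized counts in wt and 2219755 and 2173526 in Top2β-null MEF cells (log2 fold change 0.080, adjusted p = 0.0856, edgeR). Its groups did not overlap, and its call depended on the processing: 7SLRNA did not pass in this fit, but it was called higher with DESeq2 (adjusted p = 0.0014), with TMM factors from genes only (adjusted p = 0.0408), with scaling to the total count (0.15, adjusted p = 0.0047), without a filter on low counts (adjusted p = 1.4e-05), without wt replicate 2 (adjusted p = 0.0214) and without Top2β-null replicate 2 (adjusted p = 0.0290). Of the genes for 7SL RNA, Rn7s1 (0.074, adjusted p = 0.0149, edgeR) and Rn7s6 (0.125, adjusted p = 0.0014) were called higher in the main fit, and Rn7s2 was at -0.0012 (adjusted p = 0.985). The log2 ratio of Alu to 7SLRNA counts, chosen after its values had been seen, was 1.08 and 1.05 in wt and 0.99 and 0.93 in Top2β-null MEF cells (difference -0.10, pooled SD 0.035). The BC1_Mm row, named after BC1 RNA, had 36792 and 36983 normalized counts in wt and 38200 and 35897 in Top2β-null MEF cells (log2 fold change 0.0062, adjusted p = 0.870, edgeR), so that the wt libraries lay between the Top2β-null libraries. BC1_Mm was called higher with scaling to the total count (0.076, adjusted p = 0.0316, edgeR). The ratio of ID to BC1_Mm counts (log2) differed by -0.0014 with overlapping groups. The Bc1 gene itself, which is best known from neurons, had only 12 and 12 counts in wt and 28 and 19 in Top2β-null MEF cells (log2 fold change 1.00, adjusted p = 0.0400, edgeR). The BC1_Mm row lay far above this gene, so that neither the row nor its ratio to ID can be read as the level of BC1 RNA. The Bc1 call was lost with DESeq2 (adjusted p = 0.182), without a filter on low counts (adjusted p = 0.0505), with the replicate block (adjusted p = 0.0582), without either wt library (adjusted p = 0.0949 and 0.120) and without Top2β-null replicate 1 (0.68, adjusted p = 0.276). The 4.5SRNA row, a rodent RNA related to B1, was at -0.063 (adjusted p = 0.112, edgeR) and ran from -0.090 to -0.037 with 1 library left out.

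Other products of RNA polymerase III included higher and lower ones. The 7SK row, an RNA that restrains transcription elongation, had 261385 and 272553 normalized counts in wt and 360824 and 354853 in Top2β-null MEF cells (log2 fold change 0.42, adjusted p = 8.4e-09, edgeR), and its gene Rn7sk rose by 0.43. Rmrp, the RNA of RNase MRP, fell by 0.51 in 2 overlapping annotation entries that share its reads. Vaultrc5, a vault RNA, fell by 1.10, and Rny1, a Y RNA with 43 to 95 normalized counts, rose by 0.88. Among the 11 entries of such genes that were tested, 5 were higher and 3 lower, 2 of the latter being the Rmrp entries, against 32.5% of all features in each direction.

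Genes for the machinery that transcribes SINEs were read against all 25085 genes tested, whose median absolute log2 fold change was 0.42. Of 13 genes for RNA polymerase III subunits, 9 were lower, 2 higher and 2 not past the test, against 32.5% of all features in each direction, with a median log2 fold change of -0.36. Polr3d (chr14:70438757-70443447) had 5167 and 5352 normalized counts in wt and 2126 and 2179 in Top2β-null MEF cells (log2 fold change -1.29, adjusted p = 2.9e-14, edgeR), and it was the only gene of this list past the cut-offs of the study. Polr3g, which encodes a subunit typical of stem and growing cells, fell from 4397 and 4363 to 2447 and 2610 (log2 fold change -0.79). Polr3a, the largest subunit, fell by 0.33, from 9084 and 9240 to 7337 and 7269. The 2 genes that were higher were Polr3e (chr7:120917744-120947432), from 3794 and 3449 to 4727 and 4976 (log2 fold change 0.42), and Polr1d, a subunit shared with RNA polymerase I (0.25). In each of these 5 genes the groups did not overlap.

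The factors that bring RNA polymerase III to its promoters were split. Of 17 genes, 6 were higher, 8 lower and 3 not past the test, against 32.5% of all features in each direction, with a median of -0.12. Gtf3a, the factor of 5S rRNA genes, rose by 0.54, and Gtf3c2, a subunit of the B box binding factor TFIIIC, rose by 0.42. Gtf3c1, the largest TFIIIC subunit, was at 0.051 (adjusted p = 0.0870, edgeR). Gtf3c1 was called higher when either Top2β-null library was left out (0.063 and 0.062), when rows under 100 counts in any library were dropped (0.057), when no row was dropped (0.068), and when the libraries were scaled by their total count (0.12) or by TMM factors of the genes (0.069). In TFIIIB, Bdp1 rose by 0.17, a call lost with scaling to LINE, LTR and DNA counts (0.11), and Brf1 fell by 0.25. Maf1 (chr15:76351294-76354380), the repressor of RNA polymerase III, fell from 3686 and 3792 normalized counts in wt to 1981 and 2055 in Top2β-null MEF cells (log2 fold change -0.89, adjusted p = 1.1e-11, edgeR), and Snapc2, a factor of 7SK and U6 promoters, fell by 0.77.

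Of 17 genes that bind or process SINE RNA or respond to it, 8 were higher, 6 lower and 3 not past the test, against 32.5% of all features in each direction, with a median of 0.029. Adar (chr3:89715022-89753446), which edits adenosines in paired SINE copies, rose from 3572 and 3618 normalized counts in wt to 6766 and 6665 in Top2β-null MEF cells (log2 fold change 0.90, adjusted p = 1.7e-13, edgeR), whereas Adarb1, another editing enzyme, fell by 1.56. Ezh2, a histone methyltransferase reported to act on B2 RNA, rose by 0.88. Dicer1, which cuts double-stranded RNA, fell by 0.42, and Ssb, which binds the ends of RNA polymerase III transcripts, fell by 0.12. The Ssb call was lost with scaling to the total count (-0.055, adjusted p = 0.0678, edgeR) and to SINE counts (-0.11, adjusted p = 0.118). Of the pair of proteins that bind the B1-like part of 7SL RNA, Srp14 rose by 0.36 and Srp9 was at -0.034 (adjusted p = 0.425, edgeR). With 1 library left out Srp9 ran from -0.065 to -0.0019.

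Of 18 genes for chromatin proteins that silence SINEs or other repeats, 6 were higher, 8 lower and 4 not past the test, with a median of -0.036. Of the ChAHP complex, which binds SINE B2 copies, Chd4 rose by 0.62, Adnp was at 0.022 (adjusted p = 0.474, edgeR; 0.092 and called higher with scaling to the total count, adjusted p = 0.00585), and of its HP1 proteins Cbx3 rose by 0.49 and Cbx1 fell by 0.079 (adjusted p = 0.0135, edgeR). The Cbx1 call was lost under most alternatives, among them DESeq2 (adjusted p = 0.113), scaling to the total count (-0.0089) and the fits without wt replicate 1 (-0.066), without Top2β-null replicate 1 (-0.064) and without Top2β-null replicate 2 (-0.069). Setdb1 (0.55) and Hells (0.36) were higher, Suv39h1 (-0.31), Cbx5 (-0.63) and Rb1 (-1.28) were lower, and Dnmt1 was at -0.035 (adjusted p = 0.241, edgeR). With 1 library left out Dnmt1 ran from -0.047 to -0.0071 and Adnp from 0.0095 to 0.047. Against the 32.5% of all features in each direction, 22 genes of these 4 lists were higher and 31 lower out of 65 tested.

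**Figure D5:**
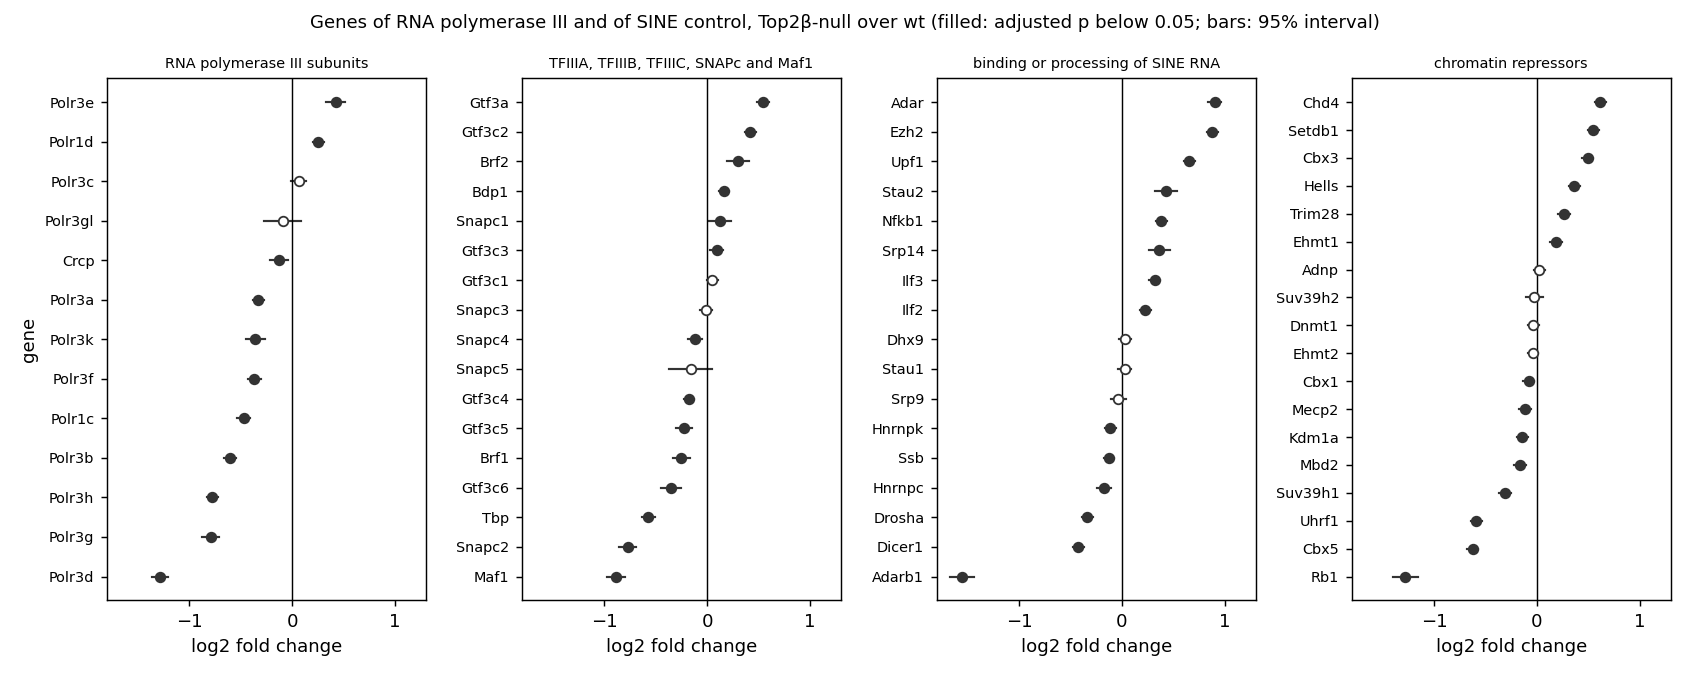
Log2 fold change in Top2β-null over wt MEF cells (horizontal axis) of 65 genes in 4 lists, with the 95% interval of the edgeR fit. Filled points have an adjusted p below 0.05; they run from -1.56 (Adarb1) to 0.90 (Adar), a wider range than the -0.13 to 0.26 of the SINE families.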

How the data were processed

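Stranded paired-end libraries were made from total RNA after removal of ribosomal RNA. Per the methods, the authors trimmed reads with Trim Galore! 0.4.0 (stringency 2), aligned them to mm10 with STAR 2.5.2, keeping up to 100 alignments a read, sorted them with samtools 1.3.1 and counted them with TEtranscripts 1.5.1 over Gencode M9 genes and families of RepeatMasker. What they deposited are whole-number counts of reads with no normalization. The mode and strand setting of TEtranscripts are not given in the sources used here. Reads that align to several families may be shared among them, so that related rows depend on each other. Symbols matched 54409 of 54842 gene identifiers.

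Rows that reached 10 counts in 2 or more libraries entered a fit by edgeR 4.0.16 (with limma 3.58.1, R 4.3.3): TMM factors over genes and repeats, a quasi-likelihood model of genotype, and Benjamini-Hochberg adjustment over all 26566 features. For normalized counts, each library was brought to the geometric mean of all effective library sizes, and intervals are the estimate ± the t quantile times its standard error. DESeq2 1.42.0 was an alternative. Sums over a family field were fitted in the same way. Over SINE rows, chi-square divided by its degrees of freedom was 12.2 between the wt and 20.9 between the Top2β-null libraries, beyond counting noise.

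Named SINE families were the 3 with the most counts in each field and the 5 most changed in each direction among those called, and named genes were a set chosen by role and the 2 most changed in each direction per list. FAM, B1_Mm, B4, ID2, MIR3, Cbx1, the 7SK and 7SL genes and the L1Md families were named after their values had been seen. Members, lists and alternatives were chosen with earlier results of these data known.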

Additional observations from a re-analysis of the deposited data

How the results depend on the processing

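Of the SINE calls, MamSINE1 was called higher under each of the 14 alternatives, and no SINE family passed the cut-offs of the study under any of them. Many of the uncalled families and sums lay near 0, and their sign turned with the scaling or with 1 library left out. These values are listed here, and the cause of the changes was not tested. With DESeq2 the sign turned for the MIR sum (0.0045), RSINE1 (0.0045), ID_B1 (0.0045), B3A (0.0046), ID4_ (0.0058) and ID (0.0039) and 1 SINE family was called higher. With DESeq2's size factors in edgeR the sign turned for the MIR sum (0.0045), RSINE1 (0.0045), ID_B1 (0.0045), B3A (0.0046), ID4_ (0.0058) and ID (0.0039). With TMM factors from genes only the sign turned for the MIR sum (0.016), the sum over all SINEs (0.0042), RSINE1 (0.016), ID_B1 (0.016), B3A (0.016), PB1D10 (0.0076), MIR (0.011), ID4_ (0.017) and ID (0.015). Without a filter on low counts the sign turned for the MIR sum (0.014), the sum over all SINEs (0.0029), RSINE1 (0.014), ID_B1 (0.014), B3A (0.014), PB1D10 (0.0059), MIR (0.0090), ID4_ (0.015) and ID (0.013). With at least 100 counts in every library the sign turned for the MIR sum (0.0034), RSINE1 (0.0037), ID_B1 (0.0038), B3A (0.0038), ID4_ (0.0049) and ID (0.0031). With scaling to the total count the sign turned for the Alu sum (0.047), the B2 sum (0.036), the MIR sum (0.067), the sum over all SINEs (0.055), B3 (0.050), RSINE1 (0.067), B2_Mm2 (0.019), ID_B1 (0.067), B3A (0.067), B1_Mus1 (0.041), PB1D10 (0.059), B1_Mus2 (0.023), MIR (0.062), ID4_ (0.068), ID (0.066), Srp9 (0.036), Dnmt1 (0.035) and 4.5SRNA (0.0063), the call was gained for the Deu sum (0.11) and 7 SINE families were called higher and 0 lower. With scaling to LINE, LTR and DNA counts the sign turned for the B4 sum (-0.038), the Deu sum (-0.016), the ID sum (-0.047), B4A (-0.016), MIRb (-0.052), ID4 (-0.040), MIRc (-0.045), LFSINE_Vert (-0.016), Gtf3c1 (-2.6e-04), Adnp (-0.029) and BC1_Mm (-0.046), the call was lost for the tRNA sum (0.052) and 1 SINE family and 3 RNA polymerase III factors were called higher. With the repeats fitted alone the sign turned for the B4 sum (-0.027), the Deu sum (-0.0046), the ID sum (-0.036), MIRb (-0.035), ID4 (-0.023), MIRc (-0.029) and BC1_Mm (-0.029), the call was lost for the tRNA sum (0.064) and 1 SINE family was called higher and 15 lower. With scaling to SINE counts, added after the data had been seen, the sign turned for the MIR sum (0.011), RSINE1 (0.012), ID_B1 (0.012), B3A (0.012), PB1D10 (0.0034), MIR (0.0062), ID4_ (0.013) and ID (0.011), the call was lost for the tRNA sum (0.12) and 1 SINE family was called higher and 0 lower, with 5 chromatin genes lower. The ratio between the families with the most counts, in place of the sums, was 0.010 for B2 to Alu, 0.026 for B4 to Alu, -0.032 for B2_Mm to B3, -0.13 for SINE to LINE and -0.076 for SINE to genes.

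With 1 library left out, 1 to 6 SINE families were called higher and 1 to 5 lower. Log2 values with 1 library left out ran from -0.049 to 0.028 for the Alu sum, -0.055 to 0.012 for the B2 sum, -0.015 to 0.066 for the B4 sum, 0.0053 to 0.090 for the Deu sum, -0.013 to 0.046 for the ID sum, -0.042 to 0.058 for the MIR sum, 0.035 to 0.20 for the tRNA sum, -0.041 to 0.035 for the sum over all SINEs, -0.039 to 0.023 for B3, -0.026 to 0.042 for RSINE1, -0.026 to 0.043 for ID_B1, -0.0022 to 0.096 for B4A, -0.025 to 0.042 for B3A, -0.068 to 0.032 for B1_Mus1, -0.036 to 0.036 for PB1D10, -0.086 to 0.014 for B1_Mus2, -0.041 to 0.064 for MIRb, -0.044 to 0.050 for MIR, -0.014 to 0.033 for ID4_, -0.012 to 0.059 for ID4, -0.035 to 0.071 for MIRc, -0.028 to 0.043 for ID, -0.023 to 0.12 for LFSINE_Vert, -0.018 to 0.053 for BC1_Mm, -0.016 to -0.0058 for the log2 ratio B2 to Alu, 0.034 to 0.038 for the log2 ratio B4 to Alu and 0.029 to 0.13 for the log2 ratio SINE to genes.

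The replicate numbers were not shown to pair the libraries: the correlation of deviations between same-numbered libraries was 0.0037 over 16436 features. With the replicate block, 2 SINE families were called higher and 2 lower (B2_Mm1t was lost), the sum over all SINEs was -0.015, the sign turned for MIRb (-8.1e-04), and 9 RNA polymerase III subunit genes were called lower. The median standard error of 0.034 limits what 2 libraries a group can show for a SINE family.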

Other observations

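MER131, whose class is written SINE? in the table and which was therefore not among the 37 SINE families, had 1706 and 1687 normalized counts in wt and 1948 and 1825 in Top2β-null MEF cells (log2 fold change 0.15, adjusted p = 0.0120, edgeR). Both Top2β-null libraries lay above both wt libraries. The rows of class tRNA, which collect tRNA genes and their copies, summed to 31786 and 32527 counts in wt and 30684 and 30396 in Top2β-null MEF cells, and of 54 such rows tested 16 were higher and 5 lower with edgeR at an adjusted p below 0.05, against 32.5% of all features in each direction. These sums were not scaled between libraries. The HY1 row, a Y RNA transcribed by RNA polymerase III, had 15 and 17 counts in wt and 28 and 50 in Top2β-null MEF cells.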
